A study of Mus musculus with 12 samples.

Results

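The genes for the NF-κB transcription factor subunits and the inhibitors that NF-κB itself induces were examined in leukemic blasts with and without STAT3β. They are the 10 rows whose gene symbol is Nfkb1, Nfkb2, Rel, Rela, Relb, Nfkbia, Nfkbid, Nfkbie, Nfkbiz or Tnfaip3, out of 24454 genes in the deposited expression table. All 10 were found once each, and all 10 passed the filter of a mean normalized count of at least 10 over the libraries, which 11476 genes passed. A normalized count is the number of reads on a gene divided by 1 size factor per library. The blasts derived from fetal liver cells of wildtype (WT) or STAT3β-deficient (Δβ) mice, both carrying the retroviral MLL-AF9 fusion oncogene with a Venus fluorescent reporter, so that WT and Δβ blasts share the oncogene and the reporter. They were grown in male immunocompromised NSG mice (NOD.Cg-Prkdc scid Il2rg tm1Wjl/SzJ), which lack lymphocytes of their own, and Venus+ cells were sorted from the spleen (SP) and bone marrow (BM) once the recipients were diseased. There were 3 libraries for each of the 4 groups WT SP, Δβ SP, WT BM and Δβ BM, 12 in all, prepared with poly-A enrichment. The labels number the replicates within a group but do not say whether SP and BM of the same number came from 1 animal, or whether replicates came from separate transductions, so the p-values measure only the spread between these libraries.

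NF-κB is a family of dimers that rest in the cytoplasm bound to inhibitors of the IκB type. Signals from receptors for TNF, interleukin-1 or microbial products activate IκB kinases, the inhibitor is degraded, and the dimer enters the nucleus. Several of its own subunits and most of its inhibitors are among its targets, and in myeloid cells it drives inflammatory cytokines and survival genes. Nfkb1 and Nfkb2 encode precursors that are processed to DNA-binding subunits without an activation domain of their own. Rela, Rel and Relb encode the subunits that activate transcription. Nfkbia (IκBα) and Nfkbie (IκBε) encode cytoplasmic inhibitors, and Nfkbid (IκBNS) and Nfkbiz (IκBζ) encode nuclear IκB proteins that modulate the dimers on DNA. Tnfaip3 encodes the ubiquitin-editing enzyme known as A20, which shuts off signalling upstream of the kinases.

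RefSeq promoter windows, from 250 bases before to 50 bases after an annotated start on GRCm38.p6, were matched for 7 of the 10 genes, with 12 windows. Nfkb1, Relb and Nfkbiz had none in the table used. The decameric κB consensus, searched on both strands, had a match in 8 of the 12 windows and in 6 of the 7 genes, all but Rela. Of all 32851 windows in the table, 8.46% held at least 1 match and 1.22% held 2 or more. The 250 bases before the start are given for Nfkbia (chr12:55492648-55492897, minus strand), the second start of Nfkbid (chr7:30422156-30422405, plus strand) and Nfkbie (chr17:45555450-45555699, plus strand). They are the windows with a match that overlap no annotated exon before the start, and capitals mark the κB matches.
Nfkbia: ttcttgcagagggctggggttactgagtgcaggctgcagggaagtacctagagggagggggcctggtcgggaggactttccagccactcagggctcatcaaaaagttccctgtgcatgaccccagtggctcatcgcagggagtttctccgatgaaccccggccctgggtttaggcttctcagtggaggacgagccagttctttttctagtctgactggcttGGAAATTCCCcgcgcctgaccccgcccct
Nfkbid: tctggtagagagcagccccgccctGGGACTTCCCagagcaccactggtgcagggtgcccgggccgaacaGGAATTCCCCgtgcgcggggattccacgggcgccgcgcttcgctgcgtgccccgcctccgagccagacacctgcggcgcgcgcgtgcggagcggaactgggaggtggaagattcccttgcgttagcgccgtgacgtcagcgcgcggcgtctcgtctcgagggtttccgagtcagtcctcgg
Nfkbie: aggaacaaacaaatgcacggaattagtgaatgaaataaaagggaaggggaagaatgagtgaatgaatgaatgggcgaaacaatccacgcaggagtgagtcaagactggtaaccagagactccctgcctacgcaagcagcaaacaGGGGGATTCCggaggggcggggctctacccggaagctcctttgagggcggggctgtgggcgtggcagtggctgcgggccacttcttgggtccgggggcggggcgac

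Counted from the start, with -1 as the base before it, the match of Nfkbia spanned positions -29 to -20 and that of Nfkbie -106 to -97. The second start of Nfkbid had 2 matches, from -226 to -217 and from -181 to -172. For the first start of Nfkb2 (chr19:46304688-46304717 and chr19:46304707-46304736, plus strand), the start of Rel (chr11:23771042-23771071, minus strand) and the first start of Tnfaip3 (chr10:19015516-19015545 and chr10:19015411-19015440, minus strand), stretches of 30 bases around the matches are given, since exons of other transcripts overlap these windows.
Nfkb2, first: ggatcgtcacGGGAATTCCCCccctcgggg
Nfkb2, second: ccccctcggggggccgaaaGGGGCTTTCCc
Rel: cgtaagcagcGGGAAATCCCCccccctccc
Tnfaip3, first: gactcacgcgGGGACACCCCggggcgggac
Tnfaip3, second: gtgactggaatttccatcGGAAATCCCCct

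In the first Nfkb2 stretch and in the Rel stretch 2 matches overlap by all but 1 base, so the run of capitals is longer there. The other Nfkb2 starts held further matches, of which 1 position lay in both overlapping windows and was counted in each. The palindrome TTCNNNGAA, a form of the site that STAT proteins recognise, had a match in 3 windows of 2 genes, Nfkb2 and Nfkbid, against 8.30% of all windows. It shared no base with a κB match. These matches describe letters in the reference sequence and are no measure of binding in the blasts.

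**Figure D1:**
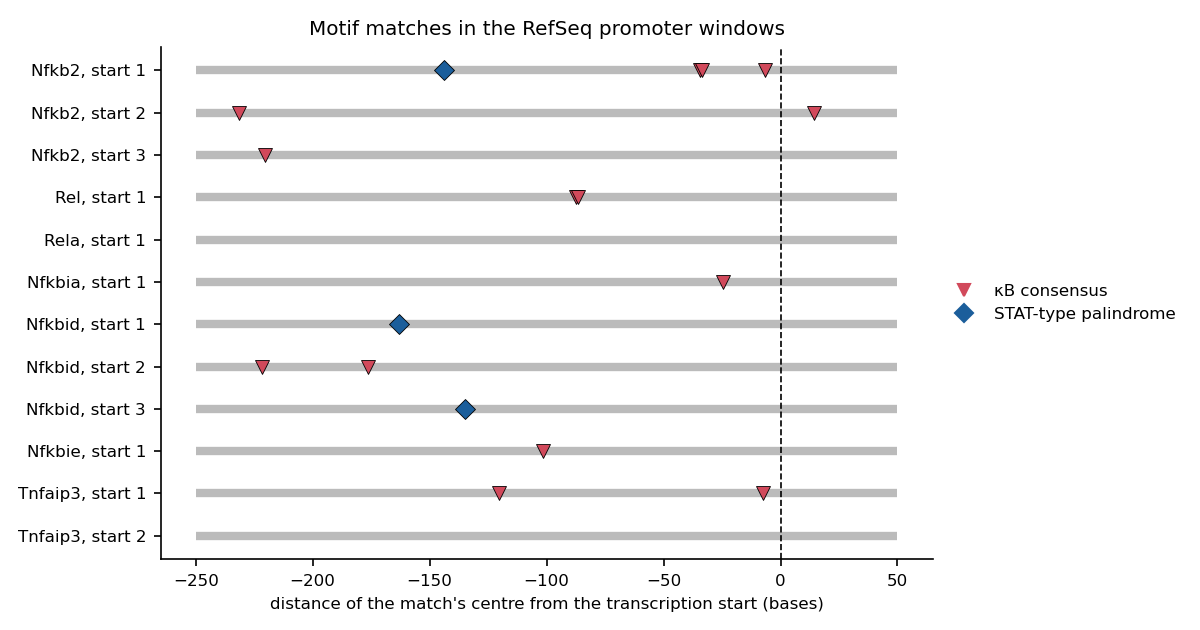
Matches of the κB consensus (triangles) and of the STAT-type palindrome (diamonds) in the 12 RefSeq windows of 7 genes, by distance in bases from the annotated start (dashed line); grey bars span the window. The κB matches of Nfkbia, Rel, Nfkbie, Tnfaip3 and the first Nfkb2 start lie before the start, and Rela and the second Tnfaip3 start hold no match of either kind.

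The libraries held 9001051 to 13859727 reads on genes, and the lowest member value rested on 35 reads (Relb in Δβ BM replicate 3). Stat3, the gene that lacks its β isoform in Δβ blasts, ranged from 2674 to 4430 normalized counts over the SP libraries and from 2349 to 3228 over the BM libraries, with genotypes that overlapped in each organ, and the gene-level values cannot show which isoform was read. Pearson's r between replicates across genes was 0.897 to 0.964 in WT SP and 0.929 to 0.968 in the other groups, and WT SP replicate 3 stood apart from the other two WT SP libraries. The tests that use WT SP are therefore also given without it for the members, the pathway lists and Tnf. WT SP replicate 3 also had the lowest average of the 10 genes among the WT SP libraries, at -0.13 on the log2 scale around each gene's mean. Leaving it out therefore widens the members' differences between WT SP and the groups it was compared with. Fits without WT SP replicate 1 are given for the members only. All 8 defining myeloid blast markers were expressed, the 4 globin genes of the erythroid list were listed at 0 in every library, and of the 10 resident macrophage genes, Vcam1 and Adgre1 passed the filter while the other 8 had at most 30.8 normalized counts in any library. In such bulk samples, fewer cells of a type and less RNA per cell cannot be told apart.

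Compared per kilobase of merged exons (GENCODE M21, GRCm38), Nfkbia had the highest level of the 10 genes, with a median of 894 normalized counts per kb over the 12 libraries and a range of 689 to 1734. Rela followed with a median of 382 per kb (329 to 516) and Nfkb1 with 329 per kb (284 to 408). The ranges of Rela and Nfkb1 overlapped, whereas those of Nfkbia and Rela, and of Nfkb1 and Nfkb2, did not. Nfkb2 (median 120 per kb, 83.4 to 269) and Nfkbid (117 per kb, 97.8 to 244) came next and overlapped. Nfkbie had a median of 65.3 per kb, Nfkbiz 41.2, Tnfaip3 39.3, Rel 28.2 and Relb 23.6, and each of these overlapped with its neighbours in the order. The gene with the widest range was Nfkbiz, 18.5-fold between its highest and lowest library. Relb spanned 7.66-fold and Tnfaip3 5.24-fold, while Rela spanned 1.57-fold and Nfkb1 1.43-fold. Rela and Nfkb1, the subunit genes of highest level, varied least.

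The members were high together in the same libraries. WT SP replicate 1 held the highest value of 8 of the 10 genes, WT SP replicate 2 that of Relb, and Δβ SP replicate 1 that of Nfkb1. All 10 genes were above their 12-library mean in WT SP replicates 1 and 2, where the average deviation on the log2 scale was 1.07 and 0.72. WT SP replicate 3 had 4 genes above the mean and an average deviation of -0.13, within the -0.43 to 0.16 of the 9 libraries from the other groups. Its 4 genes were Relb, Nfkbia, Nfkbiz and Tnfaip3, and it held the lowest value of all libraries for Rel and Nfkbid. Outside WT SP, the library with the most genes above the mean was Δβ BM replicate 1, with 7. WT SP replicates 1 and 2 also had the largest sums of normalized counts over all genes, 1.26e+07 and 1.23e+07, against 1.02e+07 to 1.13e+07 elsewhere. The share of all genes that were highest in these libraries is not given.

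**Figure D2:**
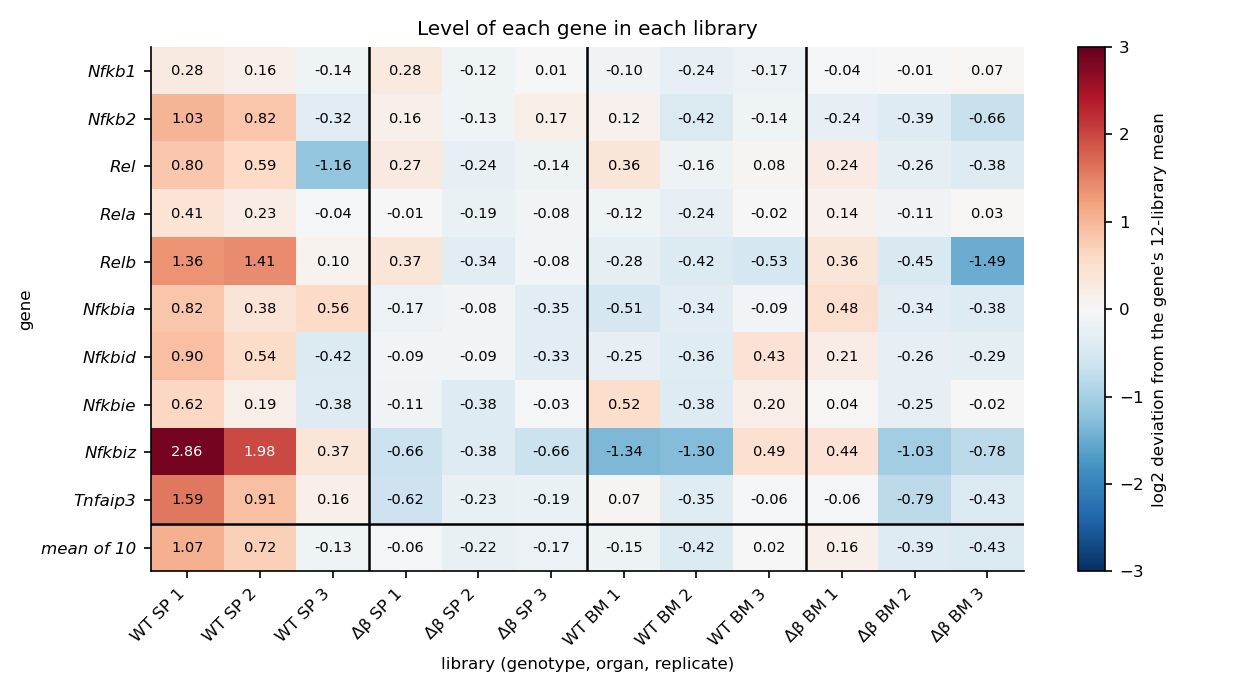
Log2 deviation of each gene (rows) from its mean over the 12 libraries (columns, by genotype, organ and replicate), with the average of the 10 genes in the bottom row; red is above and blue below the mean. WT SP replicates 1 and 2 are above the mean for all 10 genes, and WT SP replicate 3 averages -0.13.

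The first question was whether blasts without STAT3β differed from WT blasts in the SP. All 10 genes had a lower mean on the log2 scale in Δβ SP than in WT SP, and their median log2 fold change was -0.48, against -0.01 for all genes tested. None of the 10 was called by limma at an adjusted p under 0.05, where 0.105% of all genes were called. At an unadjusted p under 0.05, 4 members were lower (Rela, Nfkbia, Nfkbiz and Tnfaip3), against 8.96% of all genes. In 3 members, Nfkbia, Nfkbiz and Tnfaip3, all Δβ SP libraries were below all WT SP libraries, which was the case for 9.37% of all genes. DESeq2 on the recovered reads called the same 3 genes lower, where 2.74% of all genes were called lower. The quasi-likelihood test of edgeR called 0 members and 4 of 11476 genes. With 3 libraries against 3, an exact two-sided permutation test of a single gene cannot give a p below 0.1.

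Nfkbiz (NM_030612, minus strand of chromosome 16 from 55811375 to 55838899, positions of GENCODE M21 on GRCm38 here and in what follows) showed the widest difference. In SP it was read at 2147, 1170.05 and 381 normalized counts in the WT libraries, in replicate order, against 187, 226 and 187 in the Δβ libraries. The WT libraries spread widely, and replicate 3, the lowest of them, was still above each Δβ library. The log2 fold change was -2.30 (SE 0.65, 95% interval -3.72 to -0.88, n = 3 per group), a 4.93-fold lower level, with an adjusted p of 0.218 in limma and 0.00295 in DESeq2. In BM the same gene had 116, 119 and 415 normalized counts in WT and 400.1, 144 and 171 in Δβ, where the groups overlapped and 1 library in each stood above the rest.

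Tnfaip3 (NM_009397, minus strand of chromosome 10, 19000910 to 19015657) had 936, 583 and 347 normalized counts in WT SP and 202, 263 and 271 in Δβ SP. All WT SP libraries were above the Δβ SP libraries, and replicate 3 was again the lowest of WT. The log2 fold change was -1.24 (SE 0.32, 95% interval -1.93 to -0.54), a 2.36-fold lower level, with an adjusted p of 0.205 from limma and 0.00654 from DESeq2. Its BM values overlapped, at 325, 242 and 296 for WT against 297, 179 and 229.9 for Δβ.

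Nfkbia (NM_010907, minus strand of chromosome 12, 55489410 to 55492647), the classical feedback inhibitor, had 2792, 2057 and 2332 normalized counts in WT SP and 1398, 1497 and 1242 in Δβ SP. Here WT SP replicate 3 was not the lowest WT library, and the groups did not overlap. The log2 fold change was -0.79 (SE 0.22, 95% interval -1.27 to -0.31), a 1.73-fold lower level, with an adjusted p of 0.218 from limma and 0.0359 from DESeq2. In BM, WT libraries had 1109, 1249 and 1480.4 normalized counts and Δβ libraries 2193, 1249 and 1213, so that 1 Δβ library was far above the other five.

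The remaining inhibitors, Nfkbid (NM_172142, plus strand of chromosome 7, 30421732 to 30428746) and Nfkbie (NM_008690, plus strand of chromosome 17, 45555703 to 45563169), overlapped between genotypes in both organs. Nfkbid had 573, 448 and 229 normalized counts in WT SP and 288, 288 and 244 in Δβ SP. Replicate 3 of WT SP was below all Δβ libraries, and the log2 fold change was -0.51 (SE 0.32, limma adjusted p = 0.442). Nfkbie had 311, 230.0 and 155 normalized counts in WT SP and 187, 155 and 198 in Δβ SP, with a log2 fold change of -0.32 (SE 0.27, limma adjusted p = 0.560). In BM, Nfkbid was at 259, 239 and 415 in WT and 357, 257 and 251 in Δβ. The BM values of Nfkbie were 290, 155 and 232 in WT and 208, 169 and 199.9 in Δβ, so that neither gene separated the genotypes there.

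Among the activating subunits, Relb (NM_009046, minus strand of chromosome 7, 19606217 to 19629438) had the lowest level per kb and the widest spread. Its normalized counts were 268, 278 and 112 in WT SP and 135, 81.8 and 98.2 in Δβ SP, where WT SP replicate 3 lay inside the Δβ range. The log2 fold change was -0.97 (SE 0.46, 95% interval -1.98 to 0.04, limma adjusted p = 0.351). Rela (NM_009045, plus strand of chromosome 19, 5637483 to 5648130), the main activating partner in the canonical pathway, had 1585, 1398 and 1166 normalized counts in WT SP and 1186, 1047 and 1132 in Δβ SP. Only WT replicate 3 and Δβ replicate 1 crossed, and the log2 fold change was -0.29 (SE 0.13, 95% interval -0.57 to -0.01, limma adjusted p = 0.321). Rel (NM_009044, minus strand of chromosome 11, 23736847 to 23770970), the subunit best known from lymphocytes, had 375, 324 and 95.4 normalized counts in WT SP and 259, 181 and 194 in Δβ SP. Its WT values lay on both sides of the Δβ range, and the log2 fold change of -0.12 (SE 0.43, limma adjusted p = 0.911) was small against its error.

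Of the precursor genes, Nfkb2 (NM_019408, plus strand of chromosome 19, 46304320 to 46312385) had 1235, 1074 and 485 normalized counts in WT SP and 677, 552 and 682 in Δβ SP. As for Rel and Nfkbid, replicate 3 of WT fell below the Δβ range, and the log2 fold change was -0.44 (SE 0.30, 95% interval -1.10 to 0.22, limma adjusted p = 0.472). Nfkb1 (NM_008689, minus strand of chromosome 3, 135584655 to 135691547) had 4907, 4519 and 3678 normalized counts in WT SP and 4918, 3726 and 4085 in Δβ SP. The groups covered nearly the same range, and the log2 fold change of -0.04 (SE 0.14, 95% interval -0.34 to 0.26, limma adjusted p = 0.897) turned to 0.017 after rescaling by trimmed means.

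**Figure D3:**
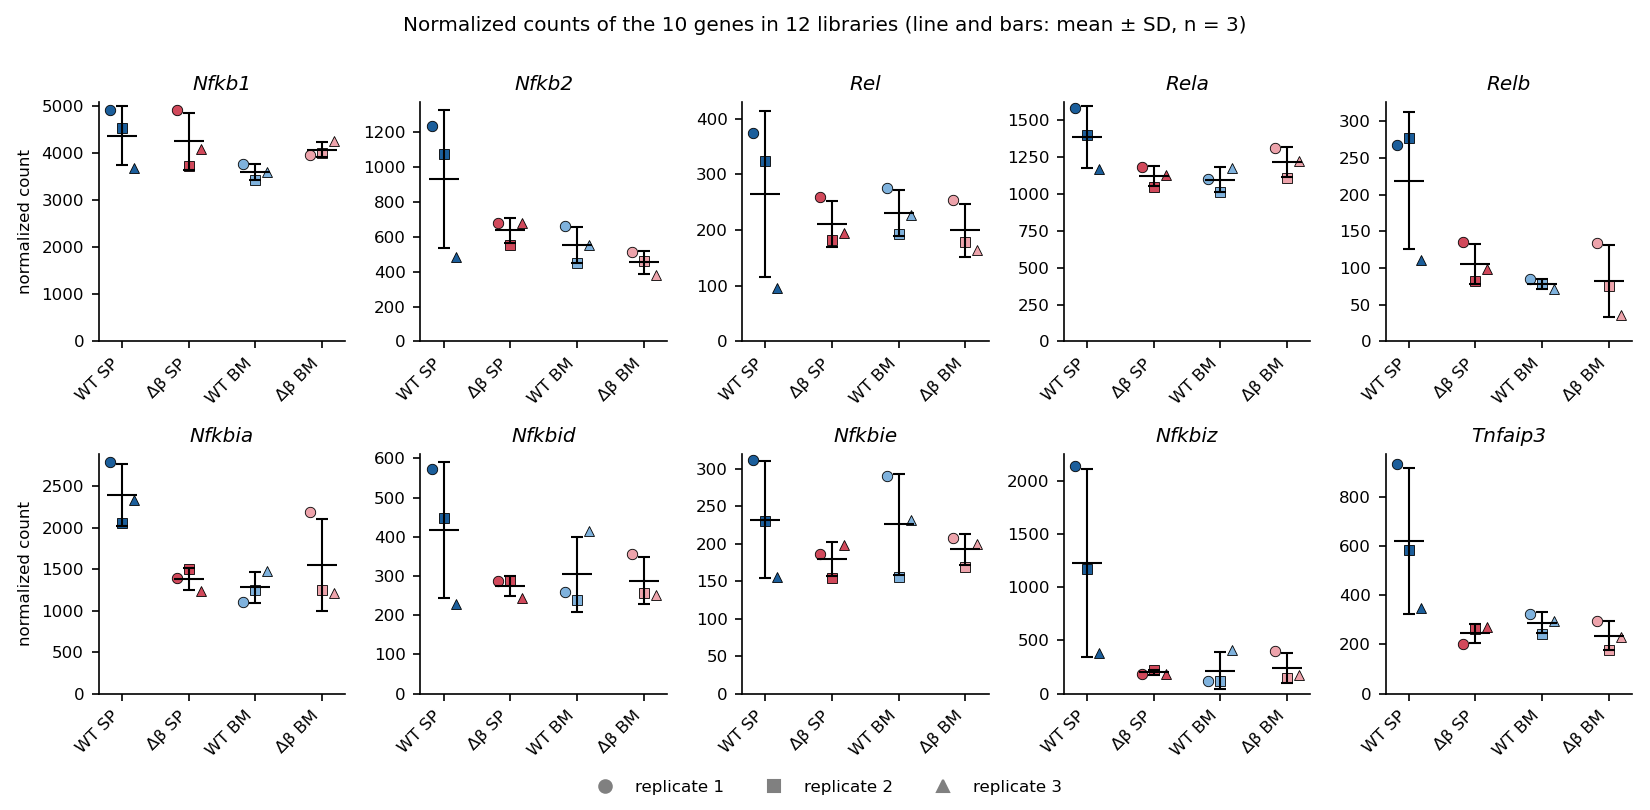
Normalized counts of the 10 genes in the 12 libraries by group; circles, squares and triangles are replicates 1, 2 and 3, and the line with bars is the mean ± SD (n = 3). In SP the Nfkbia, Nfkbiz and Tnfaip3 values of WT all lie above those of Δβ, and the WT SP bars are wide where replicate 3 is low.

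Leaving out WT SP replicate 3 changed the calls. In the fit of the other 11 libraries, limma called 5 members lower in Δβ SP, namely Nfkb2 (log2 fold change -0.86, limma adjusted p = 0.0178), Rela (-0.41, 0.0389), Nfkbid (-0.89, 0.0374), Nfkbiz (-2.99, 0.0135) and Tnfaip3 (-1.60, 0.0094). In that fit 11.7% of all genes were called lower, so the calls widened across the table. Nfkbia (-0.80) and Relb (-1.40) had an adjusted p of 0.0523 each, Rel (-0.74) one of 0.0578, Nfkbie (-0.58) one of 0.136 and Nfkb1 (-0.16) one of 0.390. With WT SP replicate 1 left out instead, limma called 0 members, and the log2 fold changes were -1.74 for Nfkbiz and -0.88 for Tnfaip3. Rel turned to 0.25 in that fit and Nfkb1 to 0.048.

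In BM the genotypes were compared in the same way. Of the 10 genes, 4 had a higher and 6 a lower mean in Δβ on the log2 scale, with a median difference of -0.09 against -0.02 for all genes. The split was 5 and 5 with edgeR and DESeq2, where Relb was higher in Δβ. The limma fit called none of the 10 genes, where 0.0697% of all genes were called. At an unadjusted p under 0.05 none passed either, against 2.59% of all genes. With edgeR 0 members and 8 of 11476 genes were called, and with DESeq2 0 members and 37 of 11457. Log2 fold changes ran from -0.31 for Tnfaip3 (SE 0.32) to 0.26 for Nfkbiz (SE 0.65). Nfkb1 was the single member without overlap, with 3772, 3428 and 3599 normalized counts in WT BM and 3944, 4003 and 4244 in Δβ BM. All 3 Δβ libraries were above all WT libraries for 3.5% of all genes, and for Nfkb1 the log2 fold change was 0.18 (SE 0.14, limma adjusted p = 0.99997).

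The activating subunits varied without a genotype difference in BM. Rela had 1100.4, 1011 and 1178 normalized counts in WT BM and 1314, 1111 and 1221 in Δβ BM. The Relb values were 85.3, 77.7 and 71.5 in WT BM, the tightest of its groups, and 134, 75.9 and 36.3 in Δβ BM, the widest in relation to the mean. For Rel they were 275, 193 and 227 in WT BM and 254, 179 and 165 in Δβ BM, and for each of these genes the groups overlapped. Nfkb2 had 661, 452 and 552 normalized counts in WT BM and 513, 464 and 382 in Δβ BM, with a log2 fold change of -0.29 (SE 0.30).

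Whether the genotype difference itself differed between the organs was tested as an interaction. The SP difference minus the BM difference was negative for 9 of 10 genes in limma, all but Rel, and for all 10 in edgeR and DESeq2. None was called by limma or edgeR at an adjusted p under 0.05, where both called 0 genes, nor by DESeq2, which called 3 of 11457. At an unadjusted p under 0.05, 3 members had a more negative difference in SP, against 1.95% of all genes. They were Nfkbiz (-2.56, SE 0.91), Nfkbia (-1.02, SE 0.31) and Rela (-0.44, SE 0.18), each with a limma adjusted p of 0.926. The genotype effect was thus not shown to differ between SP and BM for any member. Without WT SP replicate 3 the interaction was negative for all 10 genes and limma again called none. It was -3.24 for Nfkbiz, -1.29 for Tnfaip3, -1.03 for Nfkbia and -0.56 for Rela, with limma adjusted p-values of 0.172, 0.172, 0.197 and 0.173. With WT SP replicate 1 left out instead, the interaction was -2.00 for Nfkbiz, -0.90 for Nfkbia and -0.34 for Rela, and limma called 0 genes.

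**Figure D4:**
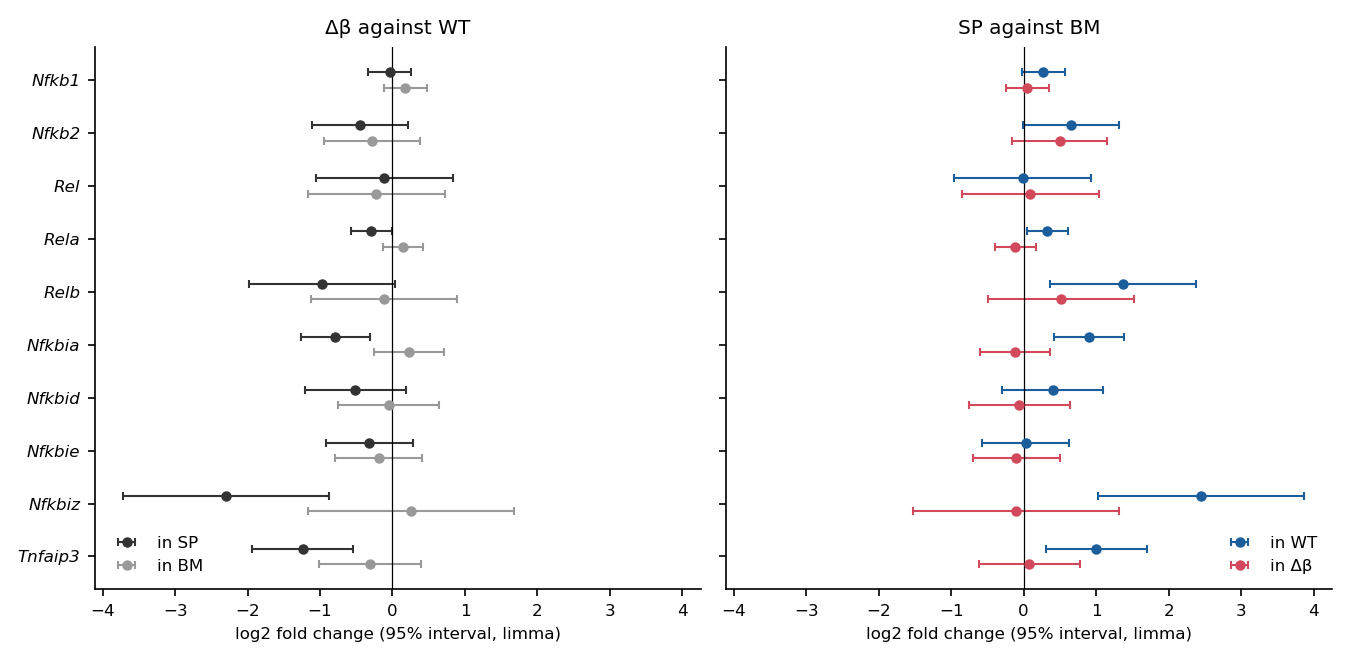
Log2 fold change of each gene with its 95% interval from limma (n = 3 libraries per group), for Δβ against WT in SP and BM (left) and for SP against BM in WT and Δβ (right). In SP the intervals of Rela, Nfkbia, Nfkbiz and Tnfaip3 lie below 0, and in BM every interval crosses 0.

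The second question was whether blasts in the SP differed from blasts in the BM. In WT, 9 of the 10 genes had a higher mean in SP, and the median log2 fold change was 0.53 against 0.00 for all genes, and Rel was at -0.01. No member was called by limma, which called 0% of all genes. At an unadjusted p under 0.05, 5 members were higher in SP (Rela, Relb, Nfkbia, Nfkbiz and Tnfaip3), against 4.36% of all genes. For Relb, Nfkbia and Tnfaip3 every WT SP library was above every WT BM library, which held for 5.66% of all genes. These are the WT SP libraries already used in the genotype comparison, so the SP-against-BM values of WT and the genotype values in SP rest on the same WT SP libraries and are not separate evidence.

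Nfkbiz was 5.47-fold higher in WT SP than in WT BM (log2 fold change 2.45, SE 0.65, 95% interval 1.03 to 3.87), although WT BM replicate 3 was above WT SP replicate 3. Limma gave it an adjusted p of 0.531 and DESeq2 one of 0.00965. Relb was 2.58-fold higher (log2 fold change 1.37, SE 0.46, limma adjusted p = 0.580), Tnfaip3 2.01-fold (1.004, SE 0.32, 0.580) and Nfkbia 1.87-fold (0.90, SE 0.22, 0.511). DESeq2 called Nfkbiz and Nfkbia higher (adjusted p = 0.0243 for Nfkbia), where 0.786% of all genes were called higher. Rela had a log2 fold change of 0.33 (SE 0.13), Nfkb2 0.65 (SE 0.30) and Nfkb1 0.27 (SE 0.14). The smallest values were those of Nfkbie (0.03, SE 0.27) and Rel (-0.01, SE 0.43), and Rel turned to 0.17 with edgeR. Without WT SP replicate 3, limma called 4 members higher in SP, against 4.23% of all genes, namely Nfkb2 (1.07), Relb (1.79), Nfkbiz (3.14) and Tnfaip3 (1.37), and Nfkbia had an adjusted p of 0.0589. With WT SP replicate 1 left out instead, limma called 0 genes, and the log2 fold changes were 1.89 for Nfkbiz and 0.65 for Tnfaip3.

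In Δβ blasts the log2 fold changes of SP against BM ran from -0.12 for Nfkbia to 0.51 for Relb. The 10 genes were split into 5 higher and 5 lower in SP, their median log2 fold change was 0.00, and every 95% interval included 0. None was called by limma or edgeR, which both called 0 genes, nor by DESeq2, which called 2 of 11457. In limma none passed an unadjusted p under 0.05, against 1.77% of all genes. Nfkbiz had a log2 fold change of -0.11 (SE 0.65, 95% interval -1.53 to 1.32), Tnfaip3 0.08 (SE 0.32) and Nfkbia -0.12 (SE 0.22). Nfkb2, the precursor of the non-canonical pathway, was the exception in its order, since all Δβ SP libraries (552 to 682) were above all Δβ BM libraries (382 to 513), as for 2.92% of all genes. Its log2 fold change was 0.50 (SE 0.30, 95% interval -0.16 to 1.16, limma adjusted p = 0.99996).

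Same-numbered SP and BM libraries of Δβ deviated together across genes, so the organs were also compared within pairs. Nfkb2, Rel and Relb were higher in SP in all 3 pairs, as were 15.7% of all genes, and Rela and Nfkbie were lower in all 3, as were 18.7%. For Nfkb2 the log2 differences were 0.40, 0.25 and 0.83 in pairs 1, 2 and 3. For Rela they were -0.15, -0.08 and -0.11, and the limma fit with the pairs as a block gave -0.11 (SE 0.13). For Relb the third pair (1.41) was far above the others (0.01 and 0.11). Nfkbiz, Tnfaip3 and Nfkbia were lower in SP in pair 1 and higher in the other two. With the pairs as a block, limma called 0 members and 0% of all genes, and no member passed an unadjusted p under 0.05, against 2.87% of all genes. The blocked log2 fold change of Nfkb2 had a standard error of 0.27 (limma adjusted p = 0.99987).

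Genes that signal to NF-κB or are controlled by it were read from 4 lists. Of the 25 genes for IκB kinases and upstream signalling, all tested, 22 had a lower and 3 a higher mean in Δβ SP than in WT SP, at a median of -0.23 on the log2 scale. None was called, and 7 passed an unadjusted p under 0.05, all lower, beside the 8.96% of all genes that were lower at that p. Of all genes tested, 51.9% had a lower mean in Δβ SP. The other inhibitors and brakes had 16 of 18 tested genes lower, with a median of -0.26, none called and 5 lower at an unadjusted p under 0.05. The receptors had 13 of 18 lower, with a median of -0.44, 0 called by limma and 3 called lower by DESeq2, which called 2.74% of all genes lower. The known targets outside the 10 genes had 22 of 24 tested genes lower, with a median of -0.69, 1 called by limma and 3 by DESeq2. Cd40 and Tlr2 stand in both the receptor and the target list. Without WT SP replicate 3, limma called 9 upstream genes, 5 other inhibitors, 7 receptors and 10 targets lower, in a fit that called 11.7% of all genes lower.

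Within WT, 20 of 25 upstream genes, 15 of 18 other inhibitors, 14 of 18 receptors and 22 of 24 targets had a higher mean in SP than in BM, and none was called by limma. DESeq2 called 2 targets higher, where it called 0.786% of all genes higher, and 9 of the 24 targets were higher at an unadjusted p under 0.05, against 4.36% of all genes. Without WT SP replicate 3, limma called 5 upstream genes, 0 other inhibitors, 3 receptors and 7 targets higher, against 4.23% of all genes. The median log2 fold changes were 0.19, 0.21, 0.34 and 0.79. In BM the genotype medians of the same lists were close to that of all genes, at 0.00, -0.05, -0.06 and -0.02. The targets were thus the list with the largest median in both comparisons that involve WT SP.

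Tnf, which encodes the cytokine that both activates NF-κB and is induced by it, was the 1 gene of the lists called by limma. The SP libraries held 699.7, 705 and 463 normalized counts of Tnf for WT and 106, 173 and 106 for Δβ. The groups were far apart, and the log2 fold change was -2.28 (SE 0.29, limma adjusted p = 0.0353), or -2.48 without WT SP replicate 3 (limma adjusted p = 0.00683). The BM values were 373, 576 and 635 for WT and 409, 224 and 292 for Δβ (log2 fold change -0.78, SE 0.29, limma adjusted p = 0.99997). Between WT SP and WT BM the Tnf libraries overlapped (log2 fold change 0.25, SE 0.29). Between Δβ SP and Δβ BM they did not, with SP lower (log2 fold change -1.26, SE 0.29, limma adjusted p = 0.99996).

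In the other lists the genes with the largest differences in SP were named by rule. Tlr7, a receptor for single-stranded RNA, had 1854, 791 and 198 normalized counts in WT SP and 251, 129 and 119 in Δβ SP (log2 fold change -2.07, SE 0.81, limma adjusted p = 0.290). Cd14, the co-receptor for lipopolysaccharide, had 3003, 1219 and 282 in WT SP and 314, 369 and 354 in Δβ SP (-1.55, SE 0.76, limma adjusted p = 0.365). Both followed the order of the WT SP libraries seen for Nfkbiz, and WT SP replicate 3 was inside or below the Δβ range. Map3k14, the kinase that triggers processing of the Nfkb2 precursor, had a log2 fold change of -0.70 (SE 0.42, limma adjusted p = 0.428). Zc3h12a, an RNase that degrades cytokine messages, was at -0.80 (SE 0.45) and Irak3, a brake on Toll-like receptor signalling, at -0.66 (SE 0.22). Of these, only Irak3 had all Δβ SP libraries (513 to 651) below all WT SP libraries (720.3 to 1139).

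The outermost points of the target list were Cxcl2 and Ccl5, chosen after their values were seen. Cxcl2, a neutrophil-attracting chemokine, had 2186, 657 and 226 normalized counts in WT SP, 55.0, 318 and 34.2 in Δβ SP, and 4.96, 5.63 and 193 in WT BM. Its log2 fold changes were -3.01 (SE 1.34, limma adjusted p = 0.332) between genotypes in SP and 5.13 (SE 1.34, limma adjusted p = 0.531) between organs in WT. Ccl5 went the other way in SP (1.38, SE 1.45), with 46.5 normalized counts in Δβ SP replicate 1 and at most 12.8 in the other SP libraries. In BM it was at 64.1 in Δβ BM replicate 1 and at most 3.11 elsewhere. The summed T and NK cell genes were highest in these same libraries, at 71.3 in Δβ SP replicate 1 and 219 in Δβ BM replicate 1 against at most 27.8 in the others, and their part was not tested.

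**Figure D5:**
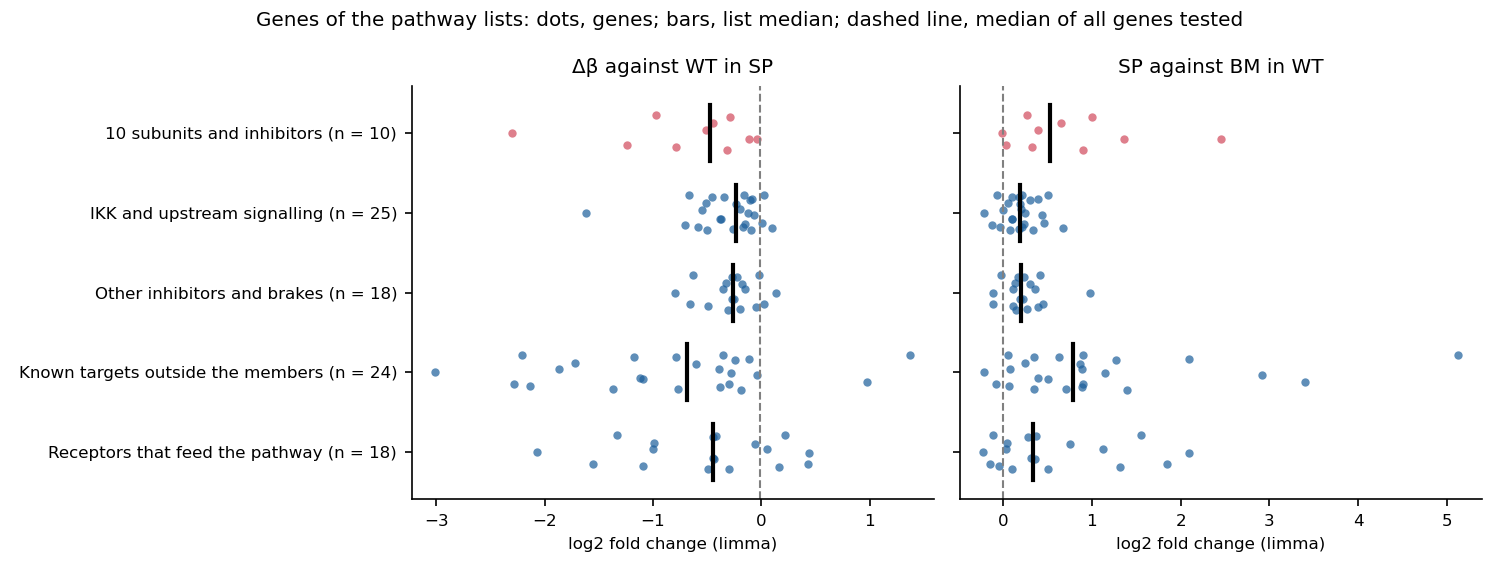
Log2 fold change from limma of the 10 subunits and inhibitors (red) and of the genes of 4 pathway lists (blue), for Δβ against WT in SP (left) and SP against BM in WT (right); each dot is a gene, the bar is the list's median and the dashed line the median of all 11476 genes. The targets have medians of -0.69 and 0.79, and both panels use the WT SP libraries.

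Other signals also separated WT SP from Δβ SP. The summed level of 13 immediate early and handling genes, all tested, was 76086 to 86301 normalized counts in WT SP and 12378 to 48484 in Δβ SP. The BM sums of these genes were 12774 to 62398 for WT and 16108 to 36386 for Δβ. Of these genes 11 had a lower mean in Δβ SP, 7 of the 13 without overlap (9.37% of all genes), and the median log2 fold change was -1.80. Between organs in WT, 12 of the 13 had a higher mean in SP, 5 without overlap (5.66% of all genes), and the median was 2.03. Fos, chosen after its values were seen, had 13632 to 17443 normalized counts in WT SP and 1988 to 12079 in Δβ SP. Rn45s, a ribosomal RNA precursor that poly-A enrichment should remove, took 0.725% to 2.48% of the reads in WT SP and 0.178% to 0.655% in the other libraries. The 8 mature neutrophil genes were all lower in Δβ SP (median log2 fold change -1.14), 0 of them without overlap, and their sums of 61044 to 155386 in WT SP and 44447 to 60827 in Δβ SP nearly touched. These sums and Rn45s were higher in each WT SP library than in every Δβ SP library. The megakaryocyte and platelet genes followed the same direction, with sums of 85.5 to 90.3 in WT SP and 58.9 to 60.9 in Δβ SP. The summed level of the stroma and endothelium genes went the opposite way, at 1163 to 1295 in WT SP and 1592 to 2552 in Δβ SP. Of the 3 tested genes of that list, however, 2 had a lower mean in Δβ SP (median log2 fold change -0.32). The 8 myeloid blast markers had sums that overlapped, 56201 to 70803 in WT SP and 49255.5 to 80626 in Δβ SP. Of these markers 5 had a lower mean in Δβ SP, 2 of the 8 without overlap (9.37% of all genes), and the median log2 fold change was -0.45. The part of any of these signals in the result was not tested. The red pulp and resident macrophage genes had sums that overlapped, 2702 to 4702 for WT SP against 2873 to 4570 for Δβ SP. The 2 tested genes of that list went opposite ways in SP, with log2 fold changes of 0.44 (SE 0.40) for Vcam1 and -0.32 (SE 0.27) for Adgre1. Marco of that list, below the filter and chosen after its values were seen, had 12.2 to 21.2 normalized counts in WT SP. It was listed at 0 in the Δβ SP libraries and had at most 2.34 in BM.

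The 10 genes also resembled each other across libraries. Pearson's r of log2 values over the 12 libraries was highest for Nfkbiz with Tnfaip3 (0.892) and Nfkbiz with Rela (0.892), followed by Nfkbiz with Nfkbid (0.885). It was lowest for Rel with Nfkbia (0.186). The points are single libraries in which WT SP replicates 1 and 2 are high for all the genes, so these values describe the likeness and carry no p. Among genes outside the family, those most like the average of the 10 standardized members were Stat6 (r = 0.983), Lrrc25 (0.978), Tgm2 (0.975), Rhoa (0.975) and St3gal4 (0.973). For single members the nearest genes were Ccrl2 for Nfkbiz (0.985), Fosl2 for Rel (0.976), Slc2a6 for Relb (0.967), Rnf11 for Nfkbid (0.966), Ptk2b for Rela (0.956) and Cass4 for Tnfaip3 (0.956). Arl4c was nearest to Nfkb2 (0.952), Vgll4 to Nfkbie (0.941), Tmub2 to Nfkbia (0.931) and Mgat1 to Nfkb1 (0.881). Of these genes, Ccrl2, Cass4 and Tmub2 had all Δβ SP libraries below all WT SP libraries, as did 9.37% of all genes, with log2 fold changes of -2.10 (SE 0.67), -2.07 (SE 0.48) and -0.38 (SE 0.12), and limma called none of them. DESeq2 called Cass4 (adjusted p = 0.00199) and Ccrl2 (0.0108) lower, and these genes were chosen for following the members over the same libraries.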

How the data were processed

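RNA from sorted blasts was sequenced in 12 libraries by the authors. The deposited signal per gene is the reads counted on a gene over that library's size factor; the submitters' processing notes name FastQC, STAR, featureCounts, DESeq2 and GRCm38/mm10, with no role or version. In every library 100% of values were whole multiples of the value of 1 read (tolerance 0.0001), so whole reads were recovered. A further 6 columns, which no label describes, were not used. Groups and replicate numbers came from the labels. The members and lists were chosen with earlier results of these data known.

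Genes with a mean of at least 10 were tested with limma 3.58.1 (trend) in R 4.3.3 on log2(normalized count + 1), with 4 group means over 12 libraries and Benjamini-Hochberg adjustment; fold changes on this scale understate those of low genes. Alternatives were pseudocounts of 0.25 and 4, no filter, a minimum mean of 50, trimmed-mean (TMM) rescaling, edgeR 4.0.16 and DESeq2 1.42.0 on the recovered reads, a fit of 6 libraries, a replicate block, and each library left out in turn. Libraries held 9001051 to 13859727 reads on genes, and member values rested on 35 reads or more.

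Same-numbered libraries from SP and BM deviated together in Δβ (r of deviations from the group means 0.608 to 0.664) but not in WT (-0.24 to -0.01), and the labels state no pairing. Named genes were the 10 members, Stat3, the genes called in each pathway list or, with none called, the 2 with the largest change in SP, and the nearest genes by correlation; 1 gene that this rule names is not reported here. Gene lengths came from GENCODE M21 and promoter windows from RefSeq.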

Additional observations from a re-analysis of the deposited data

How the results depend on the processing

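The number of genes called in SP between the genotypes was 12 and became 1 with a pseudocount of 0.25, 18 with one of 4, 5 without a filter, 2 at a minimum mean of 50, 3 with trimmed-mean rescaling, 4 with edgeR, 457 with DESeq2, 2 in the 6 libraries of that organ and 2 with the replicate block. In BM it was 8 and became 37 with DESeq2, 3 in the 6 libraries of that organ and 5 with the replicate block. DESeq2 called 3 genes for the interaction, 111 for SP against BM in WT and 2 in Δβ, where limma called 0. Members called were 0 in all settings except DESeq2, with 3 in SP and 2 between organs in WT, and the fits without WT SP replicate 3. Leaving out 1 library gave 1 to 1884 genes and 0 to 5 members in SP, 1 to 13 genes in BM, and 0 to 598 genes and 0 to 4 members between organs in WT, the highest counts in SP and between organs being those without WT SP replicate 3. The block changed no call of a member, and a gene call lost under it is no sign of a weaker effect. In the genotype contrasts the block joined libraries of the same number across all 4 groups. No label links these libraries, so an unchanged call there is no check. Signs turned as follows. In SP, Nfkb1 was 0.017 after trimmed-mean rescaling and -0.16 to 0.048 with 1 library left out, and Rel was -0.74 to 0.25. In BM, Nfkbia was -0.046 to 0.38 and Nfkbiz -0.19 to 0.86 with 1 library left out. Relb in BM was -0.12 with limma, 0.071 with edgeR and 0.061 with DESeq2. The interaction of Rel was 0.11 with limma, -0.073 with edgeR, -0.077 with DESeq2 and -0.51 without WT SP replicate 3. Between organs in WT, Rel was 0.17 with edgeR, 0.18 with DESeq2 and -0.38 to 0.60 with 1 library left out, and Nfkbie was -0.21 to 0.29. Between organs in Δβ, Nfkbia was -0.27 to 0.16, Nfkbiz -0.39 to 0.34 and Tnfaip3 -0.10 to 0.26. In BM and between organs in Δβ, the remaining settings were read for Nfkbia, Nfkbiz and Tnfaip3. For the interaction they were read for Rela, Nfkbia and Nfkbiz, so turns in other members may be missing. Why the settings differ was not tested. The effect of depth was not measured.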
